A study of Mus musculus with 6 samples.

Results

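Expression of 50 genes of cholesterol and fatty acid metabolism was compared between astrocytes of the diencephalon and of cortical grey matter of adult mice. The genes were chosen by symbol: 18 enzymes of cholesterol synthesis, 5 genes that sense sterols and switch the pathway on or off, 13 genes of fatty acid synthesis, elongation and desaturation, 6 acyl-CoA synthetases, and 8 genes of mitochondrial fatty acid oxidation. Of the 23955 genes in the deposited tables, 49 matched a member; expression of Hmgcs1, which makes HMG-CoA, was not analysed here, and only its promoter window is counted below. A filter on low counts kept 47 members among 10568 genes. Ebp, a sterol isomerase, and Acacb, the mitochondrial form of acetyl-CoA carboxylase, had 1 to 11 counts in a library and were not tested.

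Cholesterol is built from acetyl-CoA through mevalonate, farnesyl pyrophosphate, squalene and lanosterol. When sterols are low, the carrier Scap takes the SREBP transcription factors (Srebf1 and Srebf2) from the endoplasmic reticulum to the Golgi, where they are cut and set free, whereas Insig proteins hold Scap back when sterols are plentiful. In the adult brain, which is closed to blood cholesterol, astrocytes make much of the cholesterol that neurons take up. Fatty acid synthase makes palmitate, which Elovl enzymes lengthen and Scd and Fads enzymes desaturate. Acyl-CoA synthetases activate fatty acids, and Cpt proteins carry them into mitochondria for beta oxidation.

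The libraries held mRNA bound to ribosomes of astrocytes. All mice were C57BL/6 of genotype Slc1a3 +/- GFP+ Rpl22HA fl/fl. They carried a tamoxifen-dependent Cre recombinase (CreERT2) in 1 allele of Slc1a3, the gene of the glutamate transporter Glast, a floxed Rpl22 that gains a haemagglutinin (HA) tag on recombination, and a CAG-driven EGFP reporter. Both groups thus shared all alleles and the tamoxifen, which was given by gavage at 9 weeks of age, 3 times at intervals of 48 hours, in doses of 0.4 mg for each g of mouse. Slc1a3 is also active in neural stem cells, so the tag is not strictly limited to mature astrocytes. Mice of both sexes were 3 months old, and each library pooled the tissue of 3 mice. There were 3 libraries of diencephalon, dissected to leave out the border of the third ventricle, and 3 of cortical grey matter without meninges and white matter. The p-values measure the spread between such pools.

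Expected counts, which are estimates that share ambiguous reads between genes, summed to 1733145 to 2334237 per library. CPM, counts scaled to library size by TMM, is used below; a count of 0 would allow up to 3 counts, or 1.31 to 1.86 CPM, from counting error alone. All 12 astrocyte markers were counted in each library, and their summed CPM was 18660 to 21650 in diencephalon and 25700 to 31950 in cortex, with 6 of 12 lower in diencephalon and none higher. Of 13 oligodendrocyte markers, 11 were tested and 9 were higher in diencephalon, where they summed to 1857 to 2498 CPM against 858 to 1106 CPM in cortex. Lower in diencephalon were all 7 tested of 8 markers of cortical excitatory neurons (Emx1 was at 0 in all 6 libraries) and 9 of 10 markers of meninges and fibroblasts. Their summed CPM was 636 to 985 and 818 to 1244 in diencephalon against 4807 to 5688 and 4445 to 8094 in cortex. Cortical replicate 3 was unlike its group: its counts differed from those of cortical replicates 1 and 2 by a chi-square of 7.47 and 6.48 per degree of freedom, where the latter pair differed by 2.71. It had the highest cortical sums of general neuron markers (3629 CPM, the others 2574 and 2801) and microglia markers (1001 CPM, the others 414 and 639). In summed CPM, markers of general neurons were 1.56-fold lower in diencephalon, although 3 of the 10 were called higher and 2 lower. Markers of microglia were 1.69-fold lower in sum (2 of 9 tested called lower), of oligodendrocyte progenitors 1.97-fold (4 of 7 called lower) and of endothelial and mural cells 2.24-fold (2 of 6 tested called lower). Those of ependyma and choroid plexus were 7.16-fold higher (4 of 5 tested called higher), with Ttr, Clic6 and Otx2 at 0 in cortical replicate 3. In bulk libraries, fewer cells of a type and less RNA per cell cannot be told apart.

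Most members did not pass the test between the regions. Of 47 tested, 4 were higher in diencephalon (Srebf1, Scd1, Scd2 and Elovl6; 8.51%) and 6 were lower (Fdft1, Cyp51, Msmo1, Nsdhl, Elovl2 and Acadl; 12.8%) by edgeR's quasi-likelihood test with Benjamini-Hochberg adjustment over all genes at 0.05. Over all 10568 genes the shares were 14.9% higher and 14.8% lower, so neither share of the members exceeded the background. The median log2 difference, diencephalon minus cortex, was -0.0012 for the members and 0.01 for all genes, with 23 members above 0 and 24 below. With no overlap between regions, 7 members had all diencephalic libraries above and 7 had all below the cortical ones, against 21.8% and 20.8% of all genes. Tested against a fold of 1.5, only Elovl6 passed as higher and only Fdft1 as lower (edgeR glmTreat, adjusted p = 0.0123 and 0.00646), where 4.58% of all genes passed as higher and 5.41% as lower.

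**Figure D1:**
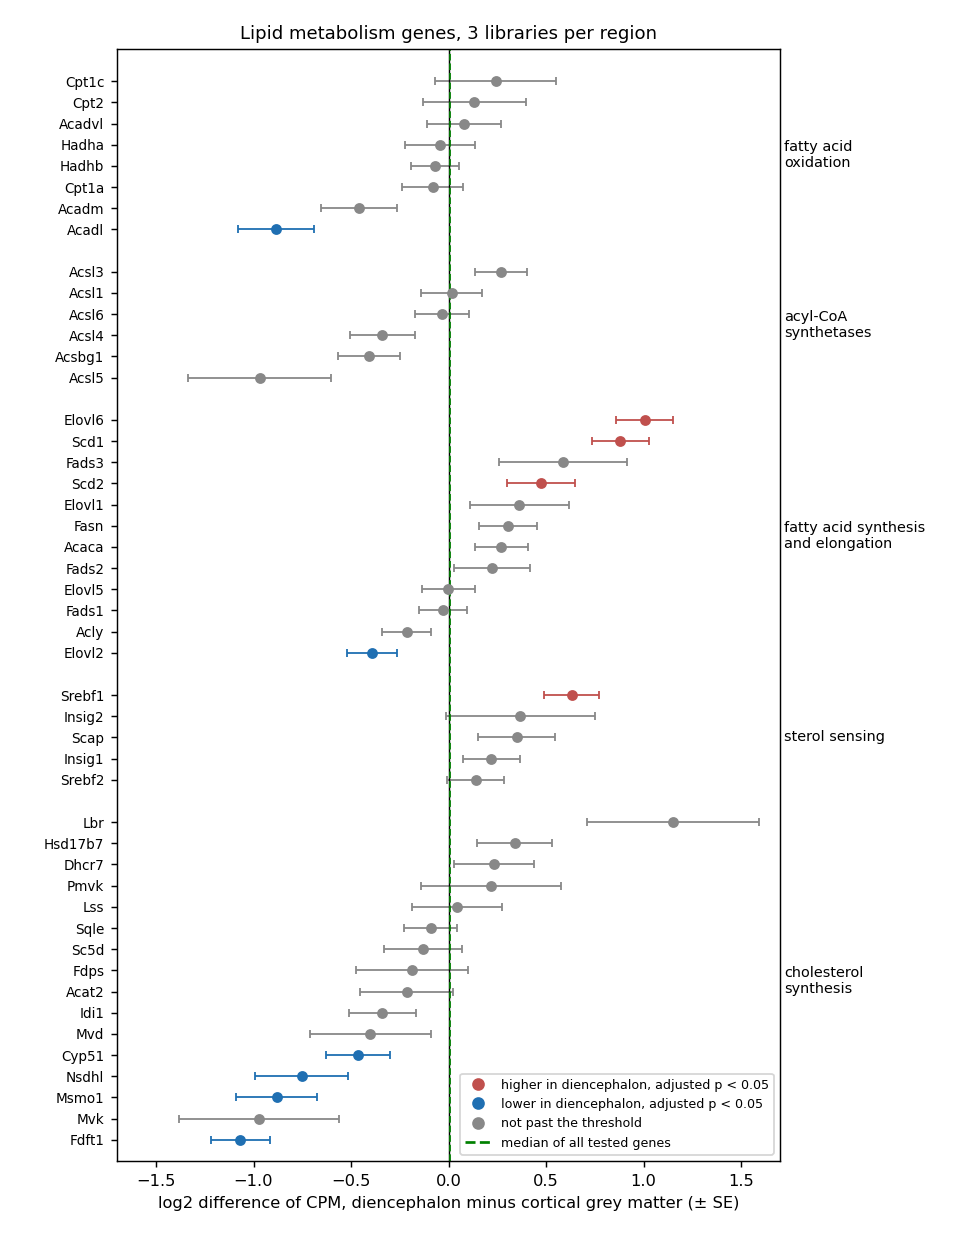
The log2 difference of CPM (diencephalon minus cortical grey matter, horizontal axis, with SE bars) is plotted for the 47 tested members, grouped by class; red and blue mark members past the threshold. The 5 sterol sensing genes all lie right of 0, the 4 called cholesterol synthesis genes lie between -1.07 and -0.47, and fatty acid synthesis genes reach from -0.39 to 1.01.

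Of 16 tested cholesterol synthesis genes, 4 were lower in diencephalon and none was higher, or 25% against the 14.8% of all genes. These 4 act on farnesyl pyrophosphate or later in the route. Their class had a median log2 difference of -0.20, with 11 of 16 genes below 0; on the deposited TPM scale, where all genes shifted up by a median of 0.22, the class median was 0.05, which is -0.16 relative to all genes.

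Fdft1, squalene synthase, which commits farnesyl pyrophosphate to sterols, had the highest mean TPM of the class over the 6 libraries and showed its largest called difference. In diencephalon alone Sqle had the higher mean, 233 TPM against 186 TPM for Fdft1. Fdft1 measured 154, 116 and 141 CPM in diencephalon replicates 1 to 3 and 300.2, 336 and 224 CPM in cortical replicates 1 to 3. Every cortical library lay above every diencephalic one. The level was 2.1-fold lower in diencephalon (means 137 ± 19.1 against 287 ± 57.6 CPM, SD, n = 3; log2 difference -1.07, SE 0.15, adjusted p = 1.26e-05; edgeR). Fdft1 made up 16.0, 13.6 and 14.1% of the class's summed TPM in the diencephalic libraries and 22.8, 22.9 and 22.2% in the cortical ones, a smaller share in each diencephalic library. Expected counts of Fdft1 were not whole numbers in any of the 6 libraries, so some of its reads were shared with other features and its level is uncertain to that extent.

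The other lower genes take part in removing methyl groups from lanosterol. Msmo1, the sterol methyl oxidase, measured 53.3, 38.0 and 48.6 CPM in the diencephalic libraries and 86.4, 112 and 58.4 CPM in the cortical ones. The regions did not overlap, but cortical replicate 3 came closest to diencephalon. The difference was -0.88 on the log2 scale (SE 0.21, edgeR adjusted p = 0.00292), a level 1.84-fold lower in diencephalon. Nsdhl, the sterol dehydrogenase that acts after Msmo1, measured 65.0, 53.8 and 67.4 CPM in diencephalon and 123, 129 and 59.0 CPM in cortex. Cortical replicate 3 lay within the diencephalic range here, while the other cortical libraries were nearly alike and far above it (log2 difference -0.75, SE 0.24, adjusted p = 0.031; edgeR). Cyp51, the lanosterol demethylase that precedes both, measured 108, 99.1 and 113 CPM in diencephalon and 156, 179 and 104 CPM in cortex, again with cortical replicate 3 inside the diencephalic range (log2 difference -0.47, SE 0.16, adjusted p = 0.0359; edgeR). Without that library the log2 differences were -1.22 for Fdft1, -1.09 for Msmo1, -1.03 for Nsdhl and -0.66 for Cyp51, with edgeR adjusted p-values of 6.65e-10, 6.46e-06, 1.28e-06 and 0.000194. The calls of Nsdhl and Cyp51 were lost when any single other library was left out (largest adjusted p = 0.112 and 0.222), and on the TPM scale those of Msmo1, Nsdhl and Cyp51 were lost (limma, adjusted p = 0.0714, 0.257 and 0.442).

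**Figure D2:**
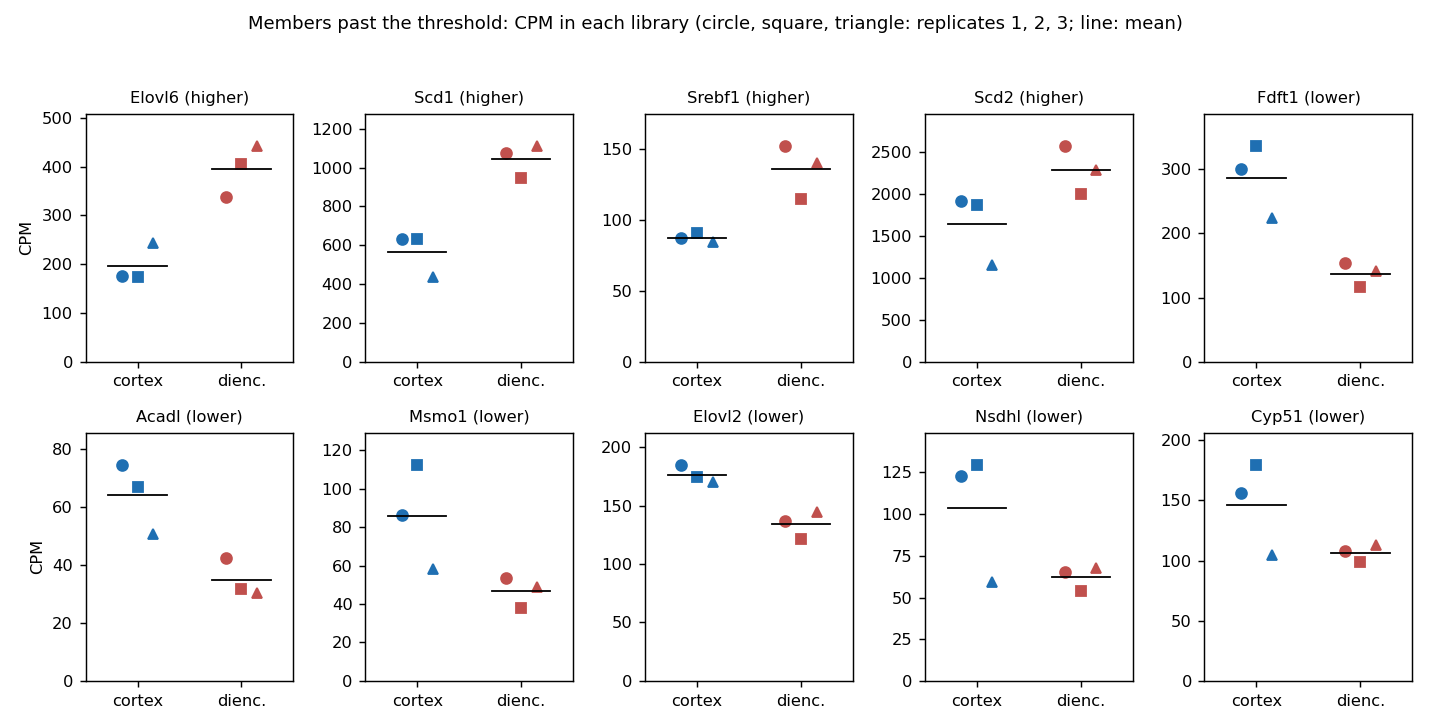
CPM (vertical axes, each from 0) is plotted in each library for the 10 members past the threshold, with cortical grey matter in blue, diencephalon in red and lines at the means. Cortical replicate 3 (blue triangle) sits among the diencephalic libraries for Nsdhl (59.0 CPM) and Cyp51 (104 CPM) and apart from them for the other 8 genes.

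The windows around the transcription starts of the 3 demethylation genes are shown because these genes moved in the same direction and because the CCAAT box, bound by the factor NF-Y, is known to accompany sterol control of this pathway. They run from 250 bases before to 50 bases after the RefSeq start in build GRCm38.p6, 5′ to 3′ on the gene's strand; capitals mark CCAAT, or ATTGG where the box lies on the other strand. The windows are chr5:4104648-4104947, minus strand, for Cyp51, chr8:64733529-64733828, minus strand, for Msmo1, and chrX:72918271-72918570, plus strand, for Nsdhl.
Cyp51: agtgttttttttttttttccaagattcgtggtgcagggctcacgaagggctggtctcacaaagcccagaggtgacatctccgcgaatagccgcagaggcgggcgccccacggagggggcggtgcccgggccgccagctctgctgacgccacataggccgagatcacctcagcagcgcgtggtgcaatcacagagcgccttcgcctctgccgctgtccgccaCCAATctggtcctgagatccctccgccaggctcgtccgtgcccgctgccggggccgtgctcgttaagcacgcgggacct
Msmo1: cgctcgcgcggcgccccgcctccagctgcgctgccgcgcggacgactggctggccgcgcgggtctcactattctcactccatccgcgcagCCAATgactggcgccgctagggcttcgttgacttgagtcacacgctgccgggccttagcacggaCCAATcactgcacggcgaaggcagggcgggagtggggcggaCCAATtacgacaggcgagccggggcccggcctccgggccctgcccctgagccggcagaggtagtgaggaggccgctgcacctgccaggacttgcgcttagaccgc
Nsdhl: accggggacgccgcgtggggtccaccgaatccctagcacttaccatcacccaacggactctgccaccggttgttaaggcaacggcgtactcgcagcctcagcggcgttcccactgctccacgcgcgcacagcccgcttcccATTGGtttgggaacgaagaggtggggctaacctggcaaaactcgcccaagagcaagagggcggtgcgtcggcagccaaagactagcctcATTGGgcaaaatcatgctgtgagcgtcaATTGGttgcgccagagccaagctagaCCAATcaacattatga
Cyp51 held 1 box, Msmo1 3 and Nsdhl 4. Windows were given for 44 members, 57 in all, and not for Fads1, Fdft1, Fdps, Scd1, Scd2 and Sqle. Among cholesterol synthesis genes, 14 of 18 windows held CCAAT on either strand (77.8%), against 57.9% of the windows of all members, 25.0% of those of oxidation genes, and 37.4% of the 32851 windows of all genes. Cholesterol genes that did not pass the test held it too, such as Mvk with 5 matches and Hsd17b7 with 3. Of all members called lower, 3 of 6 windows, from 5 genes, held CCAAT. Of those called higher it was 2 of 4, from 2 genes, or 50% of windows each. Some of these windows belong to the same gene, so such small counts cannot tell whether the box is more frequent in lower or in higher members. The E-box CACGTG was held by 12.3% of members' windows and 7.15% of all, the sterol response consensus TCACNCCAC by 3.51% and 1.24%, and the estrogen-related receptor site TNAAGGTCA by 3.51% and 1.28%, both strands searched. The sterol consensus was found in a window of Acsl1 and in that of Hmgcs1. These matches describe the letters and are not binding sites.

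The 12 tested cholesterol genes that did not pass covered the whole route from acetyl-CoA to cholesterol. The early enzymes were Acat2, a cytosolic thiolase (log2 difference -0.21), Mvk, mevalonate kinase (-0.97), Pmvk, phosphomevalonate kinase (0.22), Mvd, mevalonate decarboxylase (-0.40), Idi1, which isomerises isopentenyl pyrophosphate (-0.34), and Fdps, which makes farnesyl pyrophosphate (-0.19). Mvk had an edgeR adjusted p of 0.0791 and overlapping libraries at 6.55, 4.22 and 7.32 CPM in diencephalon and 6.98, 19.2 and 9.94 CPM in cortex. Expected counts of Acat2 were not whole in any library, so its level is uncertain.

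After squalene synthase, Sqle, the epoxidase that is a rate-limiting step, measured 144, 153 and 195 CPM in diencephalon and 169.7, 180.5 and 174 CPM in cortex. These overlapped and gave a log2 difference of -0.09 (SE 0.13, edgeR adjusted p = 0.651), beside -1.07 for Fdft1 before it in the route; the difference between the genes was not tested. Lss, which closes the ring to lanosterol, stood at 0.04. Hsd17b7, the ketoreductase that works with Msmo1 and Nsdhl, stood at 0.34, on the opposite side of 0 from those partners (edgeR adjusted p = 0.205). The last steps were close to 0 or above it, with Sc5d, a sterol desaturase, at -0.13 and Dhcr7, the final reductase, at 0.23. Lbr, a sterol reductase that also tethers chromatin to the nuclear envelope, was scarce but did not overlap between the regions, at 7.95, 11.6 and 6.79 CPM in diencephalon and 5.67, 3.73 and 1.86 CPM in cortex (log2 difference 1.15, SE 0.44, adjusted p = 0.0536; edgeR). Ebp had 8.6, 8.7 and 4.93 TPM in diencephalon and 2.69, 7.4 and 3.81 TPM in cortex.

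**Figure D3:**
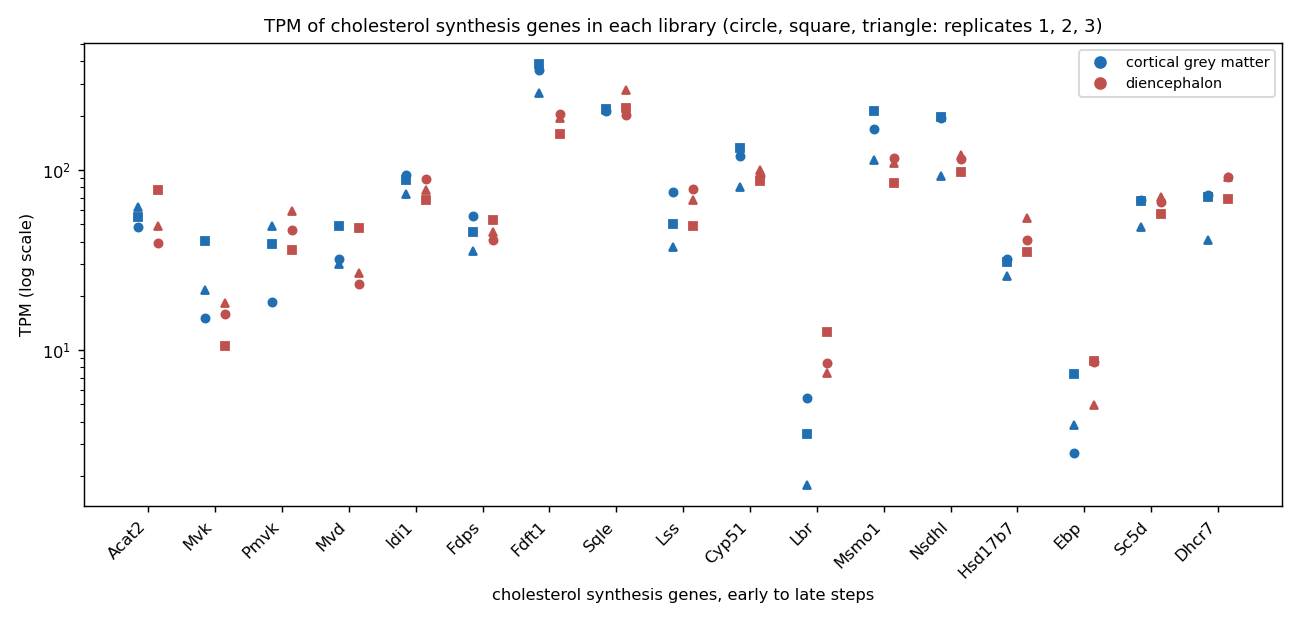
TPM, a level per transcript length, is plotted on a log scale for the 17 measured cholesterol synthesis genes in each of the 6 libraries, ordered from early to late steps. Fdft1 (159 to 389 TPM) and Sqle (201 to 279 TPM) have the highest means over the 6 libraries, Lbr and Ebp the scarcest, and the blue points of Fdft1 lie above the red ones without overlap.

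All 5 sterol sensing genes had log2 differences above 0, also on the TPM scale, with a median of 0.35, and 1 of them, or 20%, passed the test as higher, against 14.9% of all genes. Srebf1, whose SREBP1 proteins chiefly drive fatty acid synthesis genes, measured 152, 115 and 140.1 CPM in diencephalon and 87.7, 91.0 and 84.5 CPM in cortex. The cortical libraries were nearly alike, and all lay below the diencephalic ones. The level was 1.55-fold higher in diencephalon (136 ± 19.1 against 87.7 ± 3.28 CPM, SD, n = 3; log2 difference 0.63, SE 0.14, adjusted p = 0.00157; edgeR). Srebf2, whose product chiefly drives cholesterol synthesis genes, measured 139.9, 114 and 122 CPM in diencephalon and 127, 121 and 92.5 CPM in cortex, with overlap and a log2 difference of 0.14 (adjusted p = 0.51) by edgeR. Without cortical replicate 3 the class median was 0.27 and Srebf1 stood at 0.60 (edgeR adjusted p = 0.00152).

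The TPM ratio of Srebf1 to Srebf2 was therefore higher in diencephalon, at 1.16, 1.07 and 1.23, than in cortex, at 0.736, 0.803 and 0.973, with no overlap. Insig1, the sterol-induced retention protein and the most abundant gene of this class, measured 167, 175 and 159.7 TPM in diencephalon and 146, 100.2 and 128 TPM in cortex. In CPM its libraries overlapped and its log2 difference was 0.22 (adjusted p = 0.279) by edgeR. Insig2, the scarcer homologue, stood at 0.37 (adjusted p = 0.507) and Scap at 0.35 (adjusted p = 0.199). The TPM ratio of Insig1 to Insig2 was 15.2, 11.4 and 10.5 in diencephalon and 11.9, 13.0 and 15.3 in cortex and overlapped.

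Fatty acid synthesis and elongation held 3 of the 4 higher members and 1 lower one among its 12 tested genes, or 25% higher and 8.33% lower against 14.9% and 14.8% of all genes. The median log2 difference was 0.29, with 8 genes above 0 and 4 below, and 0.47 on the TPM scale, or 0.26 relative to all genes there. Without cortical replicate 3 the median was 0.11, over 13 tested genes.

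Elovl6, which elongates palmitate to stearate, had the largest called increase of all members. It measured 338, 406 and 443 CPM in diencephalon and 175, 173 and 244 CPM in cortex. The regions did not overlap, and the highest cortical value was that of cortical replicate 3. Its level was 2.01-fold higher in diencephalon (396 ± 53.2 against 197 ± 40.5 CPM, SD, n = 3; log2 difference 1.01, SE 0.15, adjusted p = 1.59e-05; edgeR), and without cortical replicate 3 the log2 difference was 1.18.

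Scd1 and Scd2 are stearoyl-CoA desaturases, which place the first double bond into saturated fatty acids. Scd1 measured 1073, 949 and 1112 CPM in diencephalon and 631, 631 and 438 CPM in cortex, with no overlap and a level 1.84-fold higher in diencephalon (log2 difference 0.88, SE 0.15, adjusted p = 7.31e-05; edgeR). Scd2, the main brain form and the most abundant member of the class, measured 2571, 1999 and 2289 CPM in diencephalon and 1915, 1871 and 1148 CPM in cortex. These also did not overlap, but cortical replicate 3 was far below the other cortical libraries, and cortical replicate 1 came close to diencephalon replicate 2. Its level was 1.39-fold higher (log2 difference 0.47, SE 0.17, adjusted p = 0.0437; edgeR). Without cortical replicate 3 the log2 difference of Scd2 was 0.27 (edgeR adjusted p = 0.0907) and that of Scd1 0.72 (5.94e-06). Scd2 also lost its call without diencephalon replicate 1 or 3 (adjusted p = 0.167 and 0.115) and with a trend on gene length removed (0.0955).

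The TPM ratio of Scd2 to Scd1 was 2.12, 1.86 and 1.82 in diencephalon and 2.68, 2.62 and 2.32 in cortex. It was lower in every diencephalic library, so the balance leaned further toward Scd1 there. Neither gene had whole expected counts in any library, and RSEM's split of shared reads between such similar genes can move this ratio. Oligodendrocytes, whose markers were 2.23-fold higher in sum in diencephalon, make much lipid for myelin and are known for high Scd2; the part of their RNA in these differences was not tested.

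Elovl2, which elongates long polyunsaturated fatty acids on the way to docosahexaenoic acid, was the only member of this class lower in diencephalon. It measured 137, 121 and 145 CPM in diencephalon and 185, 174 and 170.2 CPM in cortex, without overlap, and its level was 1.31-fold lower (log2 difference -0.39, SE 0.13, adjusted p = 0.0232; edgeR). Its call was lost on the TPM scale (limma, log2 difference -0.19, adjusted p = 0.305) and without diencephalon replicate 2 or cortical replicate 1 or 2 (edgeR adjusted p = 0.127, 0.0767 and 0.0511). Elovl5, which acts upstream in the same chain of reactions, had a log2 difference of -0.0012 (SE 0.14).

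The enzymes that make the fatty acid itself did not pass the test. Fasn, fatty acid synthase, measured 386, 356 and 373 CPM in diencephalon and 338, 347 and 216 CPM in cortex. The regions did not overlap, yet cortical replicate 3 was far below the others. The log2 difference was 0.30 (adjusted p = 0.134) by edgeR and 0.11 without that library. Acaca, the cytosolic acetyl-CoA carboxylase, did not overlap either, at 116, 127 and 142 CPM against 112, 105 and 101 CPM (log2 difference 0.27, SE 0.13, adjusted p = 0.14; edgeR). Acly, which supplies cytosolic acetyl-CoA from citrate, stood at -0.21 with the cortical libraries higher without overlap (edgeR adjusted p = 0.219). The TPM ratio of Acaca to the scarce Acacb ranged from 18.5 to 151 over the cortical libraries alone and overlapped between the regions.

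None of the front-end desaturases passed the test, and Fads1 and Fads2 were abundant in both regions. Fads1 measured 657, 602 and 579 CPM in diencephalon and 664, 630.3 and 579.5 CPM in cortex, a log2 difference of -0.03 (SE 0.12). Fads2, which acts before Fads1 on polyunsaturated chains, stood at 0.22 (adjusted p = 0.431) and their homologue Fads3 at 0.59 (adjusted p = 0.193) by edgeR. Elovl1, which elongates saturated very long chains, stood at 0.36 (adjusted p = 0.308).

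None of the 6 acyl-CoA synthetases passed the test, and 4 of them lay below 0, with a median log2 difference of -0.19 that became 0.01 on the TPM scale, or -0.21 relative to all genes there. Acsbg1, a synthetase for very long chains found in glia, had the highest mean TPM of the class over the 6 libraries, at 403, 354 and 324 TPM in diencephalon and 450, 493 and 300.4 TPM in cortex. In diencephalon alone its mean of 360.8 TPM lay below those of Acsl3 (397.9 TPM) and Acsl6 (393.4 TPM). In CPM it measured 292, 250.5 and 229 against 364, 413 and 244, with cortical replicate 3 at the level of diencephalon (log2 difference -0.41, SE 0.16, adjusted p = 0.0641; edgeR). Without that library it was lower in diencephalon, with a log2 difference of -0.60 and an adjusted p of 0.000155. Acsl5 was scarce and did not overlap, at 7.95, 6.86 and 3.66 CPM in diencephalon and 11.8, 10.7 and 14.3 CPM in cortex, and its edgeR adjusted p of 0.0506 lay just above the threshold (log2 difference -0.97, SE 0.37).

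Acsl3, the form on lipid droplets, and Acsl6, the form known for retaining docosahexaenoic acid, had mean TPM of 397.9 and 393.4 in diencephalon and 285 and 355 in cortex. Acsl3 measured 394, 361 and 414 CPM in diencephalon and 370, 334 and 265 CPM in cortex (log2 difference 0.27, SE 0.13, adjusted p = 0.138; edgeR). Acsl6 measured 311, 241 and 254 CPM against 298, 304 and 222 CPM, with overlap (log2 difference -0.03, SE 0.14, adjusted p = 0.882; edgeR). Their TPM ratio was 0.878, 1.03 and 1.15 in diencephalon and 0.843, 0.739 and 0.831 in cortex, higher in each diencephalic library but by a small margin between the nearest ones. Acsl3 did not have whole expected counts in any library. Acsl4, which prefers arachidonic acid, stood at -0.34 without overlap, and Acsl1 at 0.02.

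**Figure D4:**
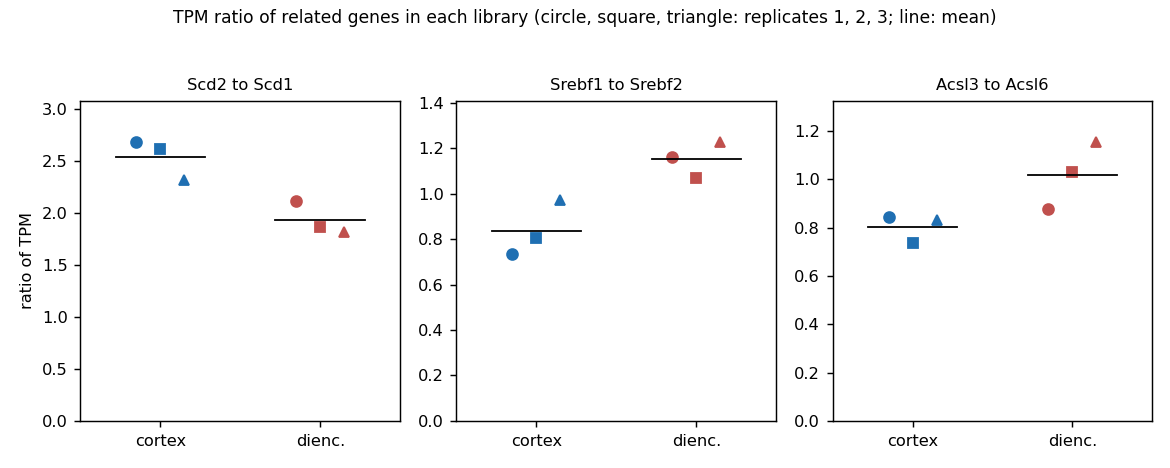
The TPM ratio of Scd2 to Scd1, Srebf1 to Srebf2 and Acsl3 to Acsl6 (vertical axes from 0) is plotted in each library, cortical grey matter in blue and diencephalon in red, with lines at the means. The diencephalic libraries lie below the cortical ones for Scd2 to Scd1 (1.82 to 2.12 against 2.32 to 2.68) and above them for the other ratios.

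Of the 8 fatty acid oxidation genes, 1 was lower in diencephalon and none was higher, or 12.5% against 14.8% of all genes. The median log2 difference was -0.06, against 0.16 on the TPM scale, or -0.06 relative to all genes there. Acadl, the long-chain acyl-CoA dehydrogenase of the first oxidation step, measured 42.6, 31.6 and 30.3 CPM in diencephalon and 74.6, 67.1 and 50.9 CPM in cortex. All cortical libraries lay above the diencephalic ones, and the level was 1.85-fold lower in diencephalon (34.8 ± 6.73 against 64.2 ± 12.1 CPM, SD, n = 3; log2 difference -0.88, SE 0.20, adjusted p = 0.00153; edgeR), with -1.02 on the log2 scale without cortical replicate 3. Acadl made up 6.62, 5.83 and 5.4% of the class's summed TPM in diencephalon and 11.7, 9.68 and 8.68% in cortex.

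Its relatives for other chain lengths did not pass. Acadm, the medium-chain form, measured 33.7, 30.1 and 41.3 CPM in diencephalon and 53.2, 49.5 and 41.0 CPM in cortex, which overlapped (log2 difference -0.46, SE 0.20, adjusted p = 0.0808; edgeR), and passed without cortical replicate 3 (-0.56, adjusted p = 0.0354). Acadvl, the very-long-chain form, stood at 0.08 (adjusted p = 0.788). Hadhb, a subunit of the trifunctional protein that completes the cycle for long chains, supplied 53.4% to 60.1% of the class's summed TPM, at 754, 671 and 702 TPM in diencephalon and 619, 684 and 632 TPM in cortex. Its CPM values overlapped, at 388, 338 and 352 against 357, 408 and 366, with a log2 difference of -0.07 (SE 0.12), and its partner Hadha stood at -0.04.

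The transport step showed no difference past the threshold. Cpt1a, the acyltransferase that controls entry into mitochondria, measured 70.2, 75.9 and 61.7 CPM in diencephalon and 70.2, 78.8 and 70.8 CPM in cortex (log2 difference -0.08, SE 0.16). Cpt1c, a neuronal relative in the endoplasmic reticulum, stood at 0.24 (SE 0.31) and Cpt2, the inner membrane enzyme, at 0.13. The TPM ratio of Cpt1a to Cpt1c was 2.26, 2.85 and 3.74 in diencephalon and 2.92, 5.52 and 2.89 in cortex, with wide overlap.

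Summed over a class in CPM, the regional means of all 6 libraries differed by at most 1.33-fold, and in TPM by at most 1.45-fold. Cholesterol synthesis genes summed to 883, 778 and 926 CPM in diencephalon and 1213, 1324 and 909 CPM in cortex. Cortical replicates 1 and 2 lay above diencephalon and replicate 3 within it. The mean was 1.33-fold lower in diencephalon (1.17-fold in TPM), 1.47-fold without cortical replicate 3 and 1.19-fold without Fdft1. Fatty acid synthesis and elongation genes summed to 6108, 5272 and 5753 CPM in diencephalon and 4830, 4655 and 3465 CPM in cortex. Each diencephalic sum was above each cortical one, with a mean 1.32-fold higher (1.45-fold in TPM), 1.20-fold without cortical replicate 3 and 1.13-fold without Scd1 and Scd2.

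Sterol sensing genes summed to 483, 406 and 420.2 CPM against 376, 339 and 326 CPM, 1.26-fold higher in diencephalon without overlap (1.43-fold in TPM). Oxidation genes overlapped, at 813, 688 and 697 CPM against 793, 873 and 716 CPM, as did acyl-CoA synthetases, at 1127, 1008 and 1023 CPM against 1187, 1209 and 886 CPM. The astrocyte marker sum was 1.47-fold lower in diencephalon in CPM and 1.14-fold lower in TPM. Slc1a2 (mean 8960 against 16210 CPM) and Aldoc (1951 against 3724 CPM) had the largest gaps of the 12 markers, and 6 were not called. In CPM the gap of the sum was larger than that of each class. In TPM it was smaller than those of fatty acid synthesis, sterol sensing and cholesterol synthesis. The TPM sums were not corrected for the upward shift of all genes on that scale (median log2 difference 0.22). That shift widens the gap of a higher sum and narrows that of a lower one, so the order in TPM depends on it. On both scales the astrocyte marker sum had the direction of the cholesterol sum and the opposite one to the fatty acid synthesis sum. The part of astrocyte RNA content, and of the RNA of oligodendrocytes, neurons and meninges, in the members' differences was not tested.

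**Figure D5:**
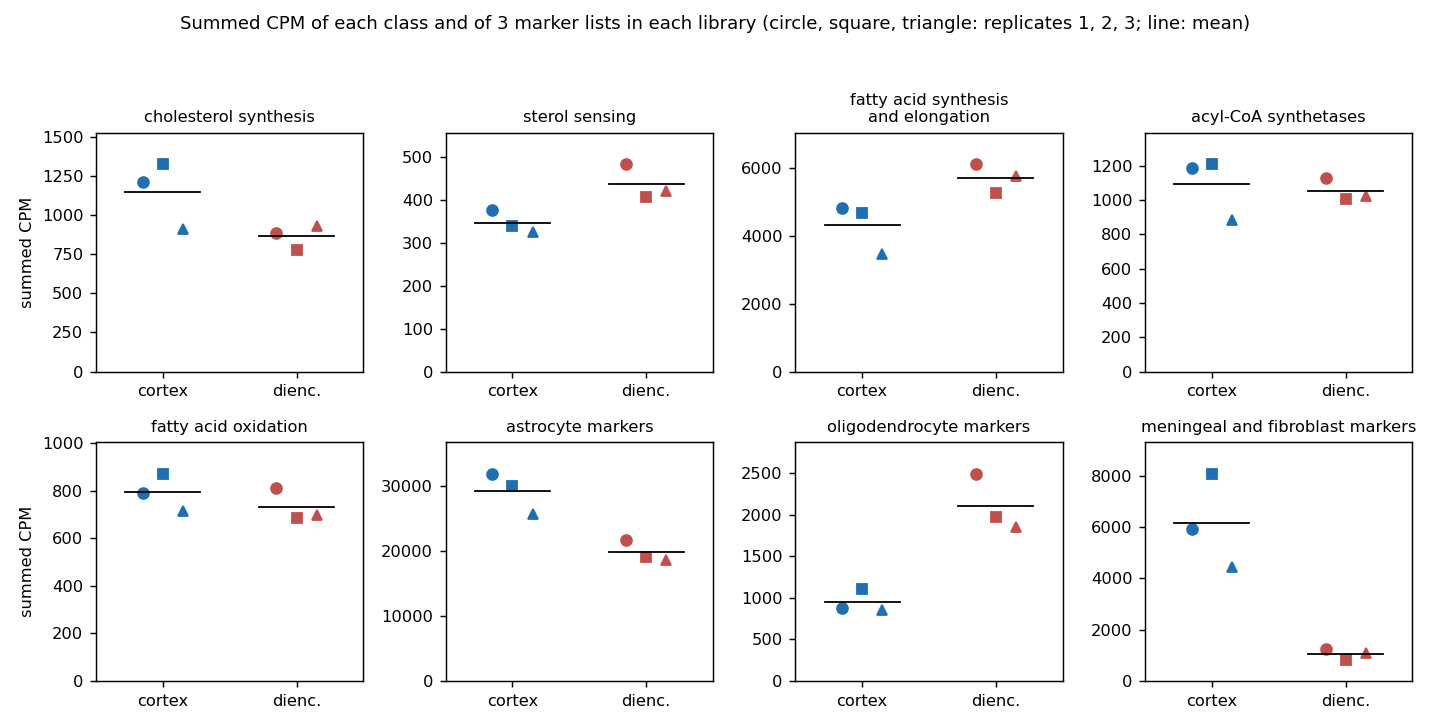
Summed CPM (vertical axes from 0) is plotted in each library for the 5 classes and for astrocyte, oligodendrocyte, and meningeal and fibroblast markers, with cortical grey matter in blue, diencephalon in red and lines at the means. Cortical replicate 3 (blue triangle) is the lowest cortical library in each of the 5 classes. It lies within the diencephalic range in cholesterol synthesis (909 CPM) and fatty acid oxidation (716 CPM), and below that range in the other classes.

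Without cortical replicate 3, 48 members were tested, of which 3 were higher (Srebf1, Scd1 and Elovl6; 6.25%) and 9 lower in diencephalon (18.8%), against 15.2% and 15.3% of 11063 genes by edgeR. The lower ones were Fdft1, Cyp51, Msmo1, Nsdhl, Elovl2 and Acadl with Idi1, Acsbg1 and Acadm; Idi1 was at the threshold (adjusted p = 0.04999). In cholesterol synthesis 5 of 16 were then lower and 12 of 16 lay below 0, with a median of -0.31. In oxidation 2 of 8 were lower, and in fatty acid synthesis and elongation 2 of 13 were higher and 1 was lower.

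Other genes of the same routes, from lists that hold no member, gave differences in both directions. Among other sterol genes, Cyp46a1, the hydroxylase by which chiefly neurons clear cholesterol from the brain, was 1.85-fold lower in diencephalon, at 38.4, 42.2 and 30.8 CPM against 65.0, 78.3 and 62.7 CPM (log2 difference -0.89, SE 0.18, adjusted p = 0.000751; edgeR). The regions did not overlap, and the gene kept its call in all 15 alternatives run.

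Of 16 tested other fatty acid synthesis genes, 2 were higher (12.5%) and 1 lower (6.25%), both below the 14.9% and 14.8% of all genes. Elovl7, an elongase of long saturated chains, was 2.39-fold higher in diencephalon, at 115, 100.2 and 87.8 CPM against 27.9, 45.8 and 55.3 CPM (log2 difference 1.25, SE 0.20, adjusted p = 6.1e-05; edgeR). Oligodendrocyte markers were 2.23-fold higher in summed CPM there, and the part of their RNA in the Elovl7 difference was not tested. Me1, malic enzyme, which supplies NADPH, was 1.31-fold higher (edgeR adjusted p = 0.0411). Mlxipl, the carbohydrate-sensing factor ChREBP, was 3.65-fold lower, at 3.27, 6.86 and 3.66 CPM against 12.7, 21.8 and 16.1 CPM (log2 difference -1.87, SE 0.38, adjusted p = 0.000625; edgeR). No library of 1 region overlapped those of the other for these genes. Elovl7 kept its call in all 15 alternatives, and Mlxipl, which was scarce, in the 14 that tested it. Me1 lost its in 7, among them the omission of any library but cortical replicate 2 (edgeR adjusted p up to 0.197). Without cortical replicate 3, 1 of 16 was higher and 4 were lower.

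Of 22 tested other oxidation genes, 5 were lower (22.7%, against 14.8% of all genes) and 1 higher (4.55%, against 14.9%), with 15 below 0 and a median log2 difference of -0.26, whereas on the TPM scale 3 of 25 were higher and none was lower, with a median of -0.0043 or -0.22 relative to all genes there. Decr1, a reductase needed to oxidise unsaturated chains, was 1.69-fold lower in diencephalon, at 38.4, 40.1 and 32.9 CPM against 66.3, 71.3 and 49.7 CPM (log2 difference -0.76, SE 0.19, adjusted p = 0.00383; edgeR). Ppara, the nuclear receptor that switches on oxidation genes, was 1.58-fold lower (edgeR adjusted p = 0.0335). Eci2, Acot2 and Ppargc1a were the other lower genes. Acad9, an acyl-CoA dehydrogenase that also assembles respiratory complex I, was 1.94-fold higher, at 17.8, 18.5 and 16.7 CPM against 6.54, 12.8 and 8.07 CPM (log2 difference 0.96, SE 0.31, adjusted p = 0.0234; edgeR), opposite in direction to Acadl. Decr1 kept its call when any library was left out and lost it on the TPM scales (limma, adjusted p = 0.0576 and 0.06). Ppara and Acad9 each lost theirs with any single diencephalic library, or cortical replicate 1, left out (edgeR adjusted p up to 0.192 and 0.125). Both also lost them with DESeq2 (adjusted p = 0.113 and 0.103), and Ppara on the TPM scales (limma, adjusted p = 0.355 and 0.349).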

How the data were processed

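Ribosome-bound mRNA was purified by the HA tag, amplified with the Ovation system and sequenced on an Ion Proton instrument, per the labels' protocols. Reads were quantified by the authors with RSEM against mouse build mm9, per the submitters' processing notes. Not given in the sources used here: its version, the aligner and whether strand was used. The deposited expected counts share ambiguous reads between genes; 3.64% to 3.99% of values per library were not whole (tolerance 0.005), among them Acat2, Fdft1, Scd1, Scd2 and Acsl3 in all libraries. The deposited TPM values, scaled by the authors to length and library total, served for levels between genes and as an alternative; the deposited FPKM values were not used. No column of an unknown sample was present (0).

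Expected counts were rounded (largest change of a total 6.94), filtered with filterByExpr (minimum count 10), scaled by TMM and fitted with edgeR 4.0.16 in R 4.3.3 (quasi-likelihood, robust, region as the only term), adjusted by Benjamini-Hochberg over 10568 genes at 0.05. The biological coefficient of variation common to all genes was 13.6%. SEs come from the F statistic, and SDs are over 3 libraries. Rn45s, the ribosomal RNA precursor, took 3.52% to 4.48% of counts in diencephalon and 1.77% to 2.23% in cortex, without overlap, and was kept. Alternatives used limma 3.58.1 and DESeq2 1.42.0. The scripts were tested on simulated data with known changes. Of these, 29.9% at 1.5-fold, 58.2% at 2-fold and 97% at 4-fold were called in the right direction. A member that was not called can therefore still differ between the regions. Promoter windows and motif matches came from a RefSeq table matched by symbol; they are in another build than the counts, and no gene position in mm9 is given. In the pathway lists 4 genes were matched by an older symbol.

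The members and gene lists were chosen with earlier results of these data known, so their pattern is no independent support for those results. By rule, values per library were given for members past the threshold, for the members of 6 gene pairs and for the most abundant member of each class; further members that missed the threshold, and Eci2, Acot2 and Ppargc1a, were named after their values were seen. From the pathway lists up to 3 called genes per list were named; some items of the lists are not reported here. Classes were described by counts, medians and sums, with no test over a list.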

Additional observations from a re-analysis of the deposited data

How the results depend on the processing

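The comparison was repeated under 15 alternatives: size factors by RLE, no filter or a minimum count of 30, DESeq2, limma voom, a replicate block, limma on 2 TPM scales (pseudocounts 1 and 0.1, mean TPM of 1 or more), removal of a trend on gene length (natural spline, 5 degrees of freedom), and each library left out. Fdft1, Srebf1, Scd1, Elovl6 and Acadl kept their calls in all 15; Cyp51, Msmo1, Nsdhl, Scd2 and Elovl2 lost theirs in at least 1. Of 37 members not called, 7 passed in at least 1 alternative, and 15 changed sign without a call, at log2 sizes up to 0.21. On the TPM scales, where the median of all genes was 0.22 and 0.24, 2118 and 1991 genes were higher and 958 and 908 lower of 14296, so 68.9% and 68.7% of calls were higher. There 2 and 2 members were lower, with 1 and 1 in cholesterol synthesis and 0 and 0 in fatty acid synthesis. With limma voom 2 cholesterol synthesis genes were lower.

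Leaving out single libraries gave 1145 to 1681 higher and 1186 to 1692 lower genes, 3 to 5 higher and 3 to 9 lower members, 0 to 1 higher and 2 to 5 lower cholesterol synthesis genes, 2 to 3 higher and 0 to 1 lower fatty acid synthesis genes, and 1 to 2 lower oxidation genes. The highest lower counts came without cortical replicate 3. The 3 lower members were left without diencephalon replicate 2 or cortical replicate 2. With any single diencephalic library, or cortical replicate 2, left out, 2 cholesterol synthesis genes were lower, and without cortical replicate 1 Lbr was higher. Elovl2, the lower fatty acid synthesis gene, was lost without diencephalon replicate 2 or cortical replicate 1 or 2.

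With the replicate block 1506 genes were higher and 1531 lower; it ended the call of Cyp51 (edgeR adjusted p = 0.0512) and gave one to Acsbg1 (0.0389). Libraries of the same number did not deviate together (correlations 0.06, -0.10 and 0.00), so the block was kept as an alternative only; the labels do not say whether pools of the same number came from the same mice. The length trend was centred on the median of all genes after its first output was seen. Lbr and Acsl5, which were scarce, and Fasn, Acaca, Acly and Acsl4, which were not, did not overlap between the regions and yet missed the threshold. The part of depth in this was not tested.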

Other observations

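Of 5 tested ketone body genes, 2 were lower (40%, against 14.8% of all genes) and 1 higher (20%, against 14.9%) in diencephalon. Oxct1, which activates ketone bodies for use as fuel, measured 311, 302 and 253 CPM in diencephalon and 430.2, 442 and 365 CPM in cortex, without overlap (log2 difference -0.52, SE 0.13, adjusted p = 0.0038; edgeR). Acat1, the mitochondrial thiolase, was 1.29-fold lower (edgeR adjusted p = 0.042), and Slc16a1, the monocarboxylate transporter MCT1, was 1.72-fold higher at 27.6, 21.1 and 23.0 CPM against 14.8, 14.9 and 11.8 CPM (edgeR adjusted p = 0.0241). By limma on TPM no ketone gene was lower, and Oxct1 had an adjusted p of 0.116. Acat1 lost its call without diencephalon replicate 2 or 3 or cortical replicate 1 or 2 (edgeR adjusted p up to 0.173). Slc16a1 lost its without diencephalon replicate 1 or 3 or cortical replicate 3 (edgeR adjusted p up to 0.107). With DESeq2 both calls were lost too (adjusted p = 0.0822 and 0.11). Slc16a1 is also made by oligodendrocytes and endothelium, whose part was not tested.

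Of 13 tested peroxisomal genes, 2 were lower (15.4%) and 1 higher (7.69%), near or below the 14.8% and 14.9% of all genes. Crot, which exports shortened chains as carnitine esters, was 2.28-fold lower in diencephalon, at 46.3, 38.0 and 36.1 CPM against 113, 95.3 and 64.6 CPM (log2 difference -1.19, SE 0.20, adjusted p = 7.04e-05; edgeR). Abcd2, a transporter of very long chains, was 1.41-fold lower (edgeR adjusted p = 0.0353). Ehhadh, the bifunctional enzyme of the peroxisomal cycle, was 2.57-fold higher, at 13.1, 16.9 and 15.7 CPM against 4.8, 9.58 and 3.11 CPM (log2 difference 1.36, SE 0.37, adjusted p = 0.00793; edgeR). For these 3 genes no diencephalic value fell within the cortical range. Crot kept its call in all 15 alternatives, and Ehhadh, which was scarce, in the 14 that tested it. Abcd2 lost its without diencephalon replicate 2 or 3 or cortical replicate 1 or 2 (edgeR adjusted p up to 0.177). It was also lost with DESeq2 (adjusted p = 0.0843) and on the TPM scales (limma, adjusted p = 0.274 and 0.272).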
